A study of Mus musculus with 2 samples.

Results

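The genes described here belong to macrophages and to the complement system and were measured in single cells of the developing mouse gastroesophageal tract: the C1q chains C1qa, C1qb and C1qc, the receptor gene Csf1r and its ligand gene Csf1, the macrophage surface genes Mrc1, Lyve1 and Adgre1, and the complement components C3 and C4b. They are 10 of the 19550 genes counted and were given by name. The data are counts of unique molecular identifiers (UMIs, each a captured mRNA molecule) from 10x Genomics 3′ sequencing of 7808 cells. The tissues were the esophagus, the gastroesophageal squamocolumnar junction (GE-SCJ, where stratified squamous epithelium meets the columnar epithelium of the stomach) and the stomach of wild-type mice at E15, at E19, as pups of day 2 and as adults of 8 weeks, with no adult stomach among the cells analysed. No treatment was given and no allele was altered in these animals. Tissue was minced and digested with collagenase, and each region and stage was marked with its own lipid-anchored oligonucleotide tag before all cells were run as 1 library.

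Each of the 11 tags pooled animals (6 mice at E15, 2 at E19, 2 pups and 3 adults), so a region at a stage is a single sample, no test between groups was possible, and no p-value is given. These animal numbers come from the submitters' design text, and the methods of the study give a different number for its single-cell work as a whole. Levels are a gene's UMIs per 1000000 UMIs of the cells in a group (CPM), with exact 95% Poisson intervals. Exact Clopper-Pearson 95% intervals stand beside the shares of cells. Log2 ratios of summed UMIs, with 1 UMI added to each sum, carry exact conditional 95% intervals. These intervals cover counting error only, and the spread between cells of a group and between mice is larger than they show. No barcode carried more than 1 region and stage name.

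Macrophages settle in organs before birth, where they clear dead cells and shape growing tissue. Their survival depends on the receptor tyrosine kinase encoded by Csf1r, which is bound by the cytokines CSF1 and IL-34, and these are made largely by neighbouring cells. C1q is the recognition molecule that starts the classical complement pathway, and resident macrophages are its main source in many tissues. C1qa, C1qb and C1qc encode the chains of C1q, the C1r and C1s proteases are bound to it, and cleavage of C4 and then C3 follows. C3 is the component on which all complement pathways converge, and it is made by the liver and locally by stromal, epithelial and myeloid cells. Mrc1 (CD206, the mannose receptor) and Lyve1 (a hyaluronan receptor) mark a subset of tissue macrophages, often near vessels, and Lyve1 also marks lymphatic endothelium. Adgre1 encodes F4/80, the classical surface antigen of mouse macrophages.

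The C1q genes lie side by side on the minus strand of chromosome 4 (GRCm38, GENCODE M21): C1qb at chr4:136880129-136886187, C1qc at chr4:136889804-136893065 and C1qa at chr4:136895917-136898803. The cluster covers 18675 bases, with 3616 bases between C1qb and C1qc and 2851 bases between C1qc and C1qa, and each gene has 3 exons. C3 (chr17:57203970-57228136) and C4b (chr17:34728380-34743882), both on the minus strand with 41 exons each, lie apart on chromosome 17. Of the remaining members, Adgre1 lies at chr17:57358691-57483527 (plus strand), Mrc1 at chr2:14229392-14332057 (plus strand, 30 exons), Lyve1 at chr7:110850607-110863239 (minus strand) and Csf1 at chr3:107741048-107760469 (minus strand). RefSeq promoters (GRCm38.p6) were matched for 5 of the 10 members. The bases before the annotated starts are shown for those that held at least 1 of the motifs searched. The motifs, searched on both strands in the 250 bases before each RefSeq start, were GAGGAA for PU.1, the lineage factor of macrophages, TTGCNNAA for C/EBP, TGANTCA for AP-1 and, for IRF, GAAA and GAAA with 2 bases between them. Capitals mark the matches, and each sequence is written 5′ to 3′ on the strand of its gene, ending before the first annotated start. For C1qc and Mrc1 the GENCODE start lies upstream of the RefSeq start, so 151 and 22 bases nearest the RefSeq start are left off.
C1qb promoter, chr4:136886201-136886450, minus strand: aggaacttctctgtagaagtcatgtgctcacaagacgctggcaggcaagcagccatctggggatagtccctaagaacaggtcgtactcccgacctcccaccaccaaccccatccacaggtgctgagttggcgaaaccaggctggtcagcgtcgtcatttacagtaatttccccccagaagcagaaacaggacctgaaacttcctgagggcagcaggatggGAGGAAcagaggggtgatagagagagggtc
C1qc promoter, chr4:136893066-136893164, minus strand: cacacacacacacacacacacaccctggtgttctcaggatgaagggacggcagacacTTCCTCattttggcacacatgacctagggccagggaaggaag
Mrc1 promoter, chr2:14229164-14229391, plus strand: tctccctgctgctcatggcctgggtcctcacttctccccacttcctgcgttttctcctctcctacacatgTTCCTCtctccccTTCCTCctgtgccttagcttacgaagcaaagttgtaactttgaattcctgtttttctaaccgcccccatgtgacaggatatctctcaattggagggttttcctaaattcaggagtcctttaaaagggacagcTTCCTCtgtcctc
C3 promoter, chr17:57228137-57228386, minus strand: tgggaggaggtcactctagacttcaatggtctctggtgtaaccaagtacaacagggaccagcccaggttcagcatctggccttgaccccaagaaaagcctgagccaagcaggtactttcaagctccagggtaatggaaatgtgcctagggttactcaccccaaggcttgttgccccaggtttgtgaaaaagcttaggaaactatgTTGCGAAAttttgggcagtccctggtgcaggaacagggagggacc
C1qb held GAGGAA from 30 to 25 bases before its RefSeq start, and C1qc held the motif on the opposite strand (TTCCTC) from 193 to 188 bases before its start. Mrc1 held it on the opposite strand at 3 places, from 180 to 175, 167 to 162 and 35 to 30 bases before its start. C3 held no GAGGAA but a C/EBP match from 45 to 38 bases before its start, and the Csf1 promoter held none of the 4 motifs. GAGGAA occurred in 23.3% of all 32851 promoters, TTGCNNAA in 9.56%, TGANTCA in 6.75% and the IRF motif in 2.98%. These matches are a description of letters in a window and were not tied to binding.

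The authors' Immune label held 354 of the 7808 cells (4.53%, 4.08 to 5.02). The label was checked against leukocyte and macrophage markers. C1qa was carried by 66.4% of its cells (61.2 to 71.3), Csf1r by 75.7% and Adgre1 by 65.5%, where carried means at least 1 UMI. In epithelial cells, which are deeper, C1qa was carried by 3.97% and Csf1r by 2.86%, and C1qa was at 3.58 CPM there against 1525 CPM in immune cells. These low shares are taken as the background level, and their source was not tested. Over the columnar and squamous cells of each tag the 7 macrophage members stayed at or below 27.2 CPM (Mrc1 in the E19 esophagus, 44 of 45 UMIs in 1 cell), apart from 1 UMI of C1qb in a group of 1 cell.

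Most immune cells held either no C1q UMI or at least 10. Summed over C1qa, C1qb and C1qc, 100 immune cells had no UMI, 20 had 1 to 4, 11 had 5 to 9, 49 had 10 to 49, 113 had 50 to 99, 59 had 100 to 199 and 2 had 200 or more. Cells with at least 5 C1q UMIs are called C1q-high below, a limit set after these values were seen. It left 234 C1q-high and 120 other immune cells, with 2 cells at 5 UMIs just inside and 3 cells at 4 just outside. The limit is on raw UMIs and so depends on depth. Cells with 3 C1q UMIs of 751 and 4 of 1083 fell outside, while a cell with 7 of 15366 fell inside. The other immune cells thus include shallow cells with C1q. Among the 7454 cells of all other labels, 9 (0.121%) reached 5 C1q UMIs, 5 of them columnar and 2 squamous, although 480 (6.44%) had at least 1. All 8 macrophage markers were present in the C1q-high cells, but C1qa, C1qb and C1qc are among the 8 and were present by the choice of cells. The 4 T, NK and innate lymphoid markers that were measured were at 0. Of 8 neutrophil markers, 2 were at 0 and the rest summed to 37.0 CPM, and of 6 lymphatic endothelial markers, 3 were at 0 and the rest summed to 11.1 CPM. The 6 mast cell markers measured, 4 of them at 0, summed to 13.5 CPM, the 3 measured B cell markers to 124 CPM, the 3 dendritic markers, 2 of them at 0, to 32.3 CPM and the 3 platelet markers, 1 of them at 0, to 19.5 CPM. Markers of the surrounding tissue were higher. The 4 fibroblast markers, all present, summed to 828 CPM, with at least 3 UMIs in 110 of the 234 cells and at least 20 in 12. By stage these came to 778, 1003 and 302 CPM (E15, E19, pup). The 4 epithelial markers summed to 335 CPM (at least 3 UMIs in 75 cells) and the 3 smooth muscle markers to 387 CPM (54 cells), and the part of such RNA in the levels below was not tested.

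**Figure D1:**
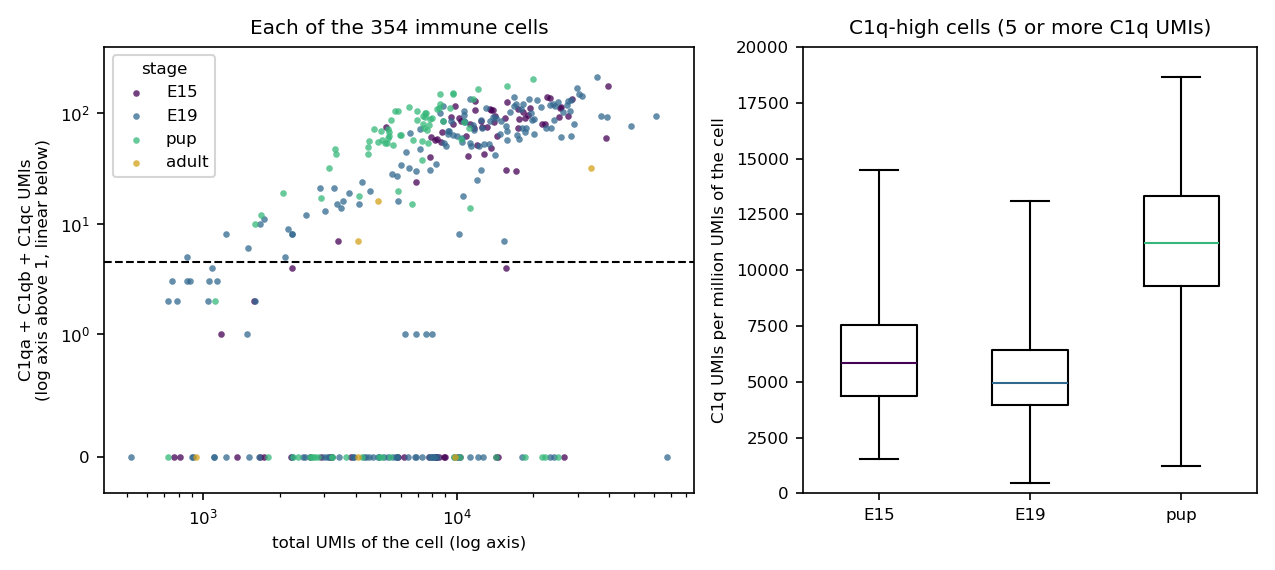
Left, C1qa, C1qb and C1qc UMIs summed (vertical axis) against total UMIs (horizontal axis) for each of the 354 immune cells, coloured by stage, with a dashed line below 5 C1q UMIs. Right, C1q CPM of each C1q-high cell at E15, E19 and the pup stage (line: median; box: quartiles; whiskers: lowest and highest). Pup cells lie to the left of embryonic cells at like C1q UMIs, and their median CPM (11238) stands above those of E15 (5832) and E19 (4926).

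Before birth, immune cells held like shares of all cells in the 3 regions. At E15 they made up 4.01% of esophageal, 3.72% of GE-SCJ and 4.18% of stomach cells, and at E19 3.85%, 5.06% and 5.42%. In the pup the regions stood apart, with 11.5% in the esophagus (39 of 340 cells, 8.29 to 15.3), 4.88% in the GE-SCJ (30 of 615, 3.32 to 6.89) and 2.75% in the stomach (17 of 618, 1.61 to 4.37). Of these pup immune cells, 12, 9 and 2 in the same order of regions had mostly embryonic cells among their 15 nearest neighbours in expression. In the adult, 5 of 335 esophageal cells (1.49%) and 1 of 143 GE-SCJ cells (0.699%) were labelled immune, so adult levels rest on 6 cells. All 6 had mostly embryonic cells among their 15 nearest neighbours in expression, and the cause was not tested. E15 and E19 gave 2062 and 3695 of the 7808 cells, and the pup and adult neighbour counts were not scaled for this. The C1q-high cells numbered 16, 19 and 19 at E15 (esophagus, GE-SCJ, stomach), 26, 38 and 51 at E19, 24, 23 and 15 in the pup, and 2 and 1 in the adult esophagus and GE-SCJ. Shares of recovered cells also depend on how well each tissue came apart, which was not tested.

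The C1q genes were at high levels in immune cells of all regions before birth and at higher CPM in the pup. C1qa was at 1430, 1585 and 1239 CPM in the E15 esophagus, GE-SCJ and stomach, and at 1657, 981 and 1274 CPM at E19. In the pup it was at 2359, 3562 and 3324 CPM, above the intervals of the embryonic samples in every region. The adult held 1 UMI in 5 esophageal cells (42.0 CPM) and 9 UMIs in the only GE-SCJ cell (265 CPM).

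C1qb was at 1618, 1939 and 1578 CPM at E15, while E19 samples held 1554, 1183 and 1469 CPM and pup samples 2205, 3055 and 2550 CPM, in the same order of regions. C1qc was at 1289, 1453 and 1344 CPM at E15, while E19 samples held 1531, 1084 and 1302 CPM and pup samples 1856, 2931 and 2808 CPM. For each chain, all pup samples were above all embryonic ones, although for C1qb the intervals of the pup esophagus and the E15 GE-SCJ overlapped. The GE-SCJ had the highest level in the pup and the lowest at E19 for all 3 genes, with intervals that overlapped those of the pup stomach for C1qa and C1qc.

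Summed over regions, the log2 ratio of pup over E15 was 1.07 for C1qa (0.97 to 1.17), 0.57 for C1qb (0.47 to 0.67) and 0.81 for C1qc (0.71 to 0.92). Over all genes with at least 100 UMIs in this comparison, the median log2 ratio was -0.07, and 7.59% of 2607 genes were higher and 4.53% lower by at least 1 on the log2 scale. Of the 8 members with enough UMIs, 2 (C1qa and Lyve1) were higher by that much and none was lower.

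**Figure D2:**
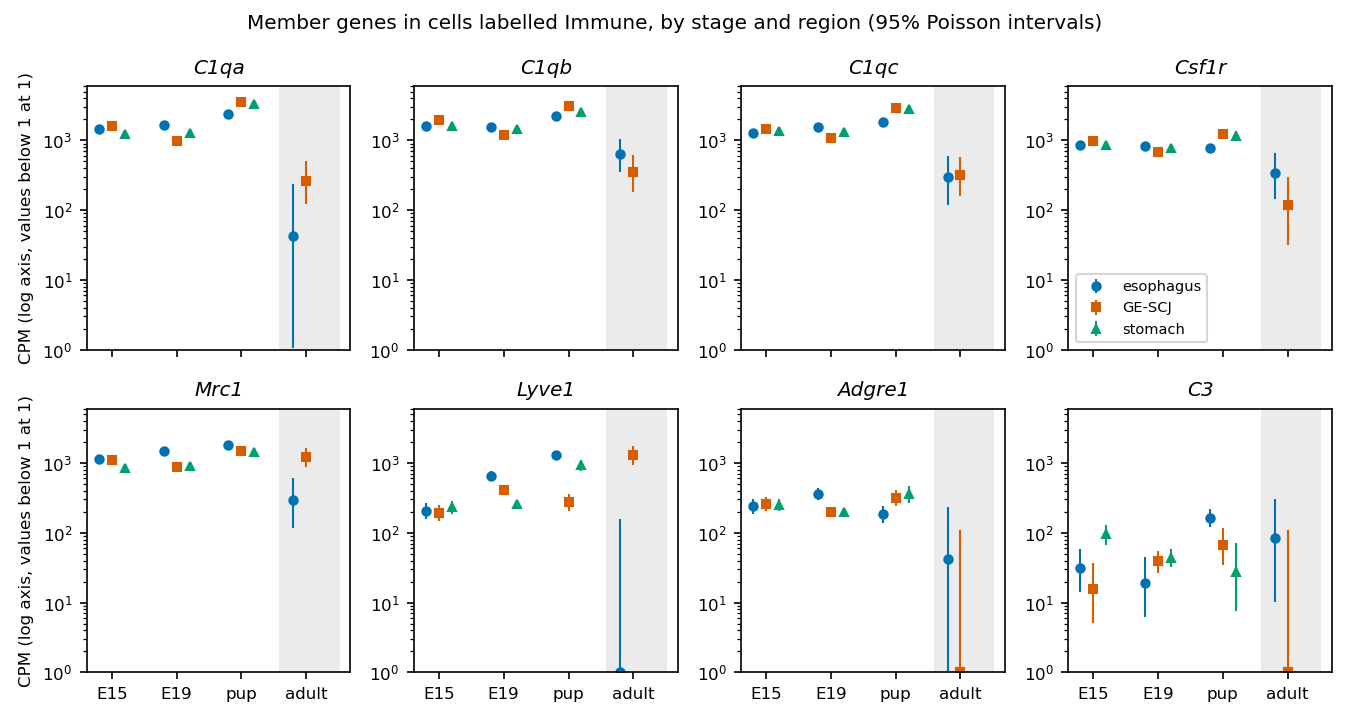
CPM (log axis) of 8 member genes in cells labelled Immune, by stage, with the esophagus (blue circles), GE-SCJ (orange squares) and stomach (green triangles) side by side and bars for 95% Poisson intervals; the grey band marks the adult samples of 5 cells and 1 cell. The pup samples stand highest for C1qa, C1qb and C1qc, while Lyve1 is at 1312, 276 and 920 CPM in the 3 pup regions.

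Pup immune cells were also shallower, which bears on every CPM. The C1q-high cells had median totals of 13618, 12229 and 6815 UMIs at E15, at E19 and at the pup stage. Their median number of C1q UMIs per cell was 84, 69 and 71.5. Stromal cells were likewise shallower in the pup (median 4258 UMIs against 10087 at E15), whereas columnar cells were not (26581 against 24893). As UMIs per immune cell, C1qa was at 20.8 UMIs in the pup and 17.4 at E15, C1qb at 17.9 and 21.1, and C1qc at 16.9 in both. The higher CPM therefore stands beside C1q counts per cell that differed less and a lower total. Whether pup macrophages held less RNA or were captured less completely cannot be told apart here.

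Among C1q-high cells alone, summed C1q was at 5008, 5649 and 5558 CPM in the E15 esophagus, GE-SCJ and stomach, 5396, 4733 and 4651 CPM at E19, and 11668, 10796 and 10424 CPM in the pup. The samples of a stage lay close together and no pup sample overlapped an embryonic one. These cells were chosen by their C1q UMIs, so the level is conditioned on that choice. Of the 62 C1q-high pup cells, 8 had mostly embryonic cells among their 15 nearest neighbours in expression. They carried 7854 CPM of C1q, 262 CPM of Cd163 and 32.8 CPM of Lyve1, against 11526, 1644 and 1485 CPM in the other 54. Hemoglobin and other erythroid marker UMIs made 16971, 9046 and 525 CPM of the E15, E19 and pup C1q-high cells, most of it in a few embryonic cells. Leaving out hemoglobin, mitochondrial and ribosomal protein genes gave a log2 ratio of E15 over pup in immune cells of -0.95 for C1qa.

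The balance between the chains differed with stage. This ratio lies within the same cells and so does not depend on their depth. Immune cells held 0.823 C1qa UMIs per C1qb UMI at E15 (0.767 to 0.884) and 0.883 at E19 (0.837 to 0.932), against 1.16 in the pup (1.08 to 1.24). The 6 adult immune cells lay below all of these at 0.370 (0.160 to 0.790), from 10 C1qa and 27 C1qb UMIs. By region the ratio was 0.883, 0.818 and 0.785 at E15, 1.07, 0.829 and 0.867 at E19, and 1.07, 1.17 and 1.30 in the pup, for esophagus, GE-SCJ and stomach. In the GE-SCJ and stomach every pup interval lay above the E15 and E19 intervals, whereas in the esophagus the E19 and pup values were alike. C1qc made up 30.5%, 32.6% and 30.4% of C1q UMIs at the 3 stages. Each UMI marks the 3′ end of a molecule, so the ratio is not scaled by gene length, but capture can differ between 3′ ends and the value itself is not a ratio of proteins.

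**Figure D3:**
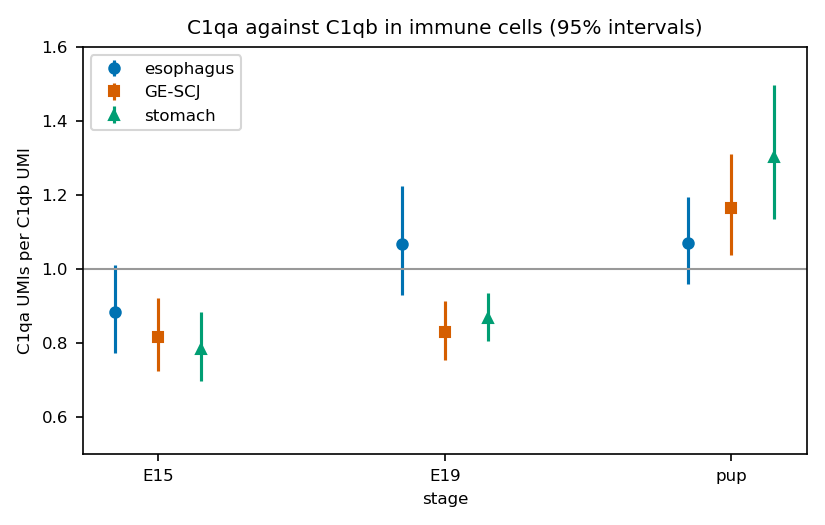
C1qa UMIs per C1qb UMI (vertical axis) in immune cells at E15, E19 and the pup stage, by region, with 95% intervals; the grey line marks equal counts. The pup GE-SCJ (1.17) and stomach (1.30) stand above their embryonic samples, and the esophagus passes 1 already at E19 (1.07).

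Csf1r, which encodes the receptor for CSF1 and IL-34, was at like CPM at E15 and in the pup over all immune cells. It was at 871, 985 and 870 CPM at E15, while E19 samples held 825, 690 and 785 CPM and pup samples 778, 1223 and 1150 CPM. The pup GE-SCJ and stomach were above the rest and the pup esophagus was among the lowest. Pup over E15 gave a log2 ratio of 0.14 (-0.01 to 0.29) in immune cells. Among C1q-high cells the level was 1064, 882 and 1346 CPM at the 3 stages, and the pup regions lay at 1282, 1383 and 1380 CPM. The low value of the pup esophagus thus came with its other immune cells, which were 15 of 39 and carried 163 CPM. Per immune cell, Csf1r was at 11.2 UMIs at E15 and 7.03 in the pup. Adult samples held 12 UMIs in 6 cells.

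Csf1, the ligand gene, was nearly absent from immune cells and present in the stroma. Immune cells held 40 Csf1 UMIs in 25 of 354 cells (10.6 CPM), 22.9 CPM or less in every sample. Among labels, the level was 60.6 CPM in cells labelled Stromal, the main fibroblast-type label, where 36.2% of 3442 cells carried it. It was 29.0 CPM in the smaller label Stromal-2, 22.5 CPM in smooth muscle, 15.7 CPM in endothelial cells and 2.06 CPM in epithelium. Stromal cells stood above epithelium by a log2 ratio of 4.87 (4.60 to 5.17), and by 4.58, 4.95, 5.23 and 5.70 within E15, E19, pup and adult.

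By stage, Csf1 in Stromal cells was at 42.3, 69.2, 76.3 and 129 CPM from E15 to the adult. At E15 the esophagus, GE-SCJ and stomach held 40.4, 42.7 and 43.7 CPM, a narrow range. At E19 they held 87.4, 61.7 and 56.6 CPM, and in the pup 82.8, 58.4 and 82.9 CPM. The adult esophagus was at 186 CPM and the adult GE-SCJ at 51.2 CPM, in 31 and 15 cells. Pup over E15 gave 0.86 on the log2 scale (0.54 to 1.15), and adult over pup 0.79 (0.18 to 1.31). The adult side held no stomach cells, so stage and region cannot be told apart in the second ratio. In the GE-SCJ alone the adult was not above the pup. Per Stromal cell the order of E15 and pup turned, with 0.456 Csf1 UMIs at E15 and 0.360 in the pup, where cells were shallower. The adult held 0.783. Il34, which encodes the other ligand of CSF1R, was at 2.36 CPM or less in every label, with the highest value in squamous epithelium.

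Adgre1 CPM differed little between E15 and the pup. In immune cells it was at 240, 259 and 254 CPM at E15, while E19 samples held 363, 197 and 197 CPM and pup samples 185, 316 and 362 CPM. Pup over E15 came to 0.08 on the log2 scale (-0.22 to 0.37). Per immune cell it was at 3.12 UMIs at E15 and 1.87 in the pup. At E19 the esophagus was above the stomach by 0.99 (0.60 to 1.35) on the log2 scale among C1q-high cells, whereas the ratio was -0.35 at E15 (-0.84 to 0.10) and -0.45 in the pup (-1.04 to 0.13). These 3 differences were not tested against each other.

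Mrc1 was carried by 65.3% of immune cells and by 216 of the 234 C1q-high cells. In immune cells it was at 1121, 1093 and 853 CPM at E15, while E19 samples held 1505, 875 and 917 CPM and pup samples 1835, 1471 and 1449 CPM, in the order esophagus, GE-SCJ and stomach. The esophagus had the highest level at each of these stages, at E15 within the interval of the GE-SCJ. In the adult it was at 294 CPM (7 UMIs in 5 cells) against 1207 CPM in the only GE-SCJ cell. Among C1q-high cells the esophagus was again highest, with 1297, 1240 and 1142 CPM at E15, while E19 samples held 1701, 1276 and 1028 CPM and pup samples 3320, 1663 and 1740 CPM. In C1q-high cells pup stood over E15 by 0.90 (0.78 to 1.03) on the log2 scale, and 0.51 without the esophagus. Per C1q-high cell the order turned, with 18.9 Mrc1 UMIs at E15 and 16.0 in the pup.

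Lyve1 differed most among the members. In immune cells it was at 206, 193 and 232 CPM at E15 and at 657, 408 and 258 CPM at E19 in the esophagus, GE-SCJ and stomach. In the pup it was at 1312 CPM in the esophagus (1183 to 1452), 276 CPM in the GE-SCJ (204 to 365) and 920 CPM in the stomach (770 to 1091). Pup over E15 in immune cells had a log2 ratio of 2.11 (1.88 to 2.34), above the other members tested. Per immune cell Lyve1 was also higher, with 2.63 UMIs at E15 and 6.48 in the pup.

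Among C1q-high cells, Lyve1 was at 235, 219 and 311 CPM at E15, while E19 samples held 729, 595 and 296 CPM and pup samples 2381, 312 and 1104 CPM. The esophagus was level with the other regions at E15, above the stomach at E19 and above both in the pup. The share of C1q-high cells with Lyve1 followed, with 7 of 16, 8 of 19 and 8 of 19 cells at E15, 14 of 26, 19 of 38 and 19 of 51 at E19, and 20 of 24, 10 of 23 and 7 of 15 in the pup. No single cell made the esophageal value, since 12 of its 24 cells held at least 10 Lyve1 UMIs and the top cell held 17.3% of them, against 38.6% in the top cell of the pup stomach. In the adult all 44 Lyve1 UMIs lay in the only GE-SCJ immune cell. Cells with less Lyve1 each and fewer Lyve1-positive cells both lower a summed level, and the pup GE-SCJ showed both. Of its 10 Lyve1-positive cells, 2 held at least 10 Lyve1 UMIs, against 12 of 20 in the esophagus. Averaged over all C1q-high cells, Lyve1-negative ones included, the GE-SCJ held 2.13 Lyve1 UMIs per cell and the esophagus 15.6.

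In the pup, the log2 ratio of esophagus over GE-SCJ in C1q-high cells was 2.91 for Lyve1 (2.50 to 3.39) and 0.99 for Mrc1 (0.78 to 1.22). Over stomach it was 1.10 for Lyve1 (0.82 to 1.41) and 0.93 for Mrc1 (0.70 to 1.17). The other members tested lay between -0.14 and 0.21 against the GE-SCJ and between -0.45 and 0.39 against the stomach. In the first comparison 4.87% of 452 genes were higher and 1.77% lower by at least 1 on the log2 scale, and in the second 6.77% and 7.02% of 399 genes. Of 7 members tested, 1 (Lyve1) was higher by that much in each and none was lower. Median depths of these cells were near each other (6244.5, 5995 and 8005 UMIs). Of the C1q-high cells in the pup esophagus, GE-SCJ and stomach, 2, 4 and 2 had mostly embryonic nearest neighbours and were kept in these ratios. Per cell, Lyve1 kept log2 ratios of 2.85 and 0.82 over GE-SCJ and stomach.

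Across birth the members split by region. The log2 ratio of pup over E15 in C1q-high cells was 3.32 for Lyve1 in the esophagus, 0.52 in the GE-SCJ (-0.06 to 1.08) and 1.82 in the stomach. For Mrc1 it was 1.35, 0.43 and 0.61, and for C1qa 1.37, 1.16 and 1.27. C1qa CPM was thus higher by like amounts in the 3 regions and Lyve1 CPM was not, in the same cells. Over the 3 regions 10.4% of 2021 genes were higher and 7.67% lower by at least 1 on the log2 scale, against 3 higher (C1qa, C1qc and Lyve1) and none lower of 7 members tested. From E15 to E19 these shares were 0.741% and 0.256% of 3913 genes, and none of the 7 members passed that size. The largest was Lyve1, at 0.81 (0.60 to 1.04). C1qa, C1qb and C1qc also chose these cells, so their place in both counts is conditioned on that choice.

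**Figure D4:**
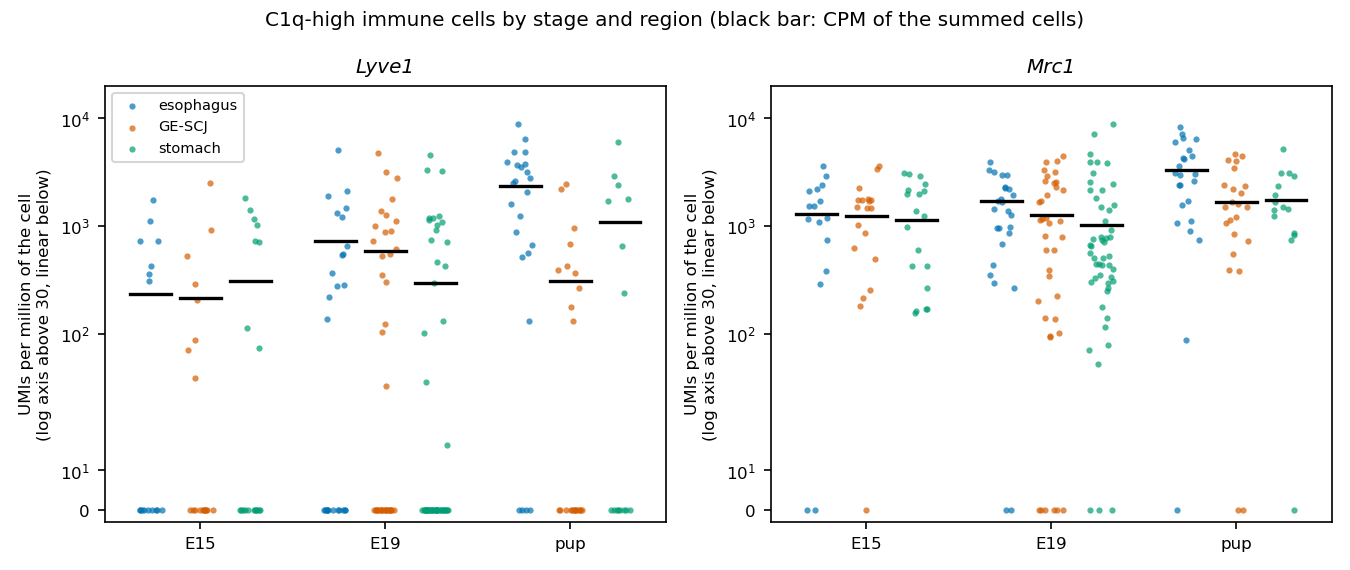
Lyve1 (left) and Mrc1 (right) CPM in each C1q-high cell (points; log axis above 30, linear below), by stage and region, with black bars for the CPM of the summed cells. In the pup, 20 of 24 esophageal cells carry Lyve1 against 10 of 23 in the GE-SCJ, while nearly all cells of every region carry Mrc1.

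C1q-high cells with and without Lyve1 differed in other genes at each stage. Mrc1 was at 1847 CPM in Lyve1-positive and 859 CPM in Lyve1-negative cells at E15 (log2 ratio 1.10, 0.92 to 1.28), 1976 and 492 CPM at E19 (2.00, 1.85 to 2.16), and 3282 and 1006 CPM in the pup (1.70, 1.48 to 1.94). Over all genes tested, 2.45% at E15 and 3.37% at E19 were higher in Lyve1-positive cells by at least 1 on the log2 scale. C1qa, C1qb and C1qc were within 0.25 of equal levels at all 3 stages, and Csf1r within 0.21. The pooled depths were near each other, with medians of 12528 and 15765 UMIs at E15, 12515.5 and 11547 at E19, and 6693 and 6950 in the pup, but in the E15 esophagus they were 9487 and 17145.

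Genes of antigen presentation and of monocytes stood on the Lyve1-negative side. H2-Aa, an MHC class II chain, had 1 UMI in the 52 Lyve1-positive and 143 UMIs in the 63 Lyve1-negative cells of E19 (log2 ratio -6.04, -12.34 to -4.53). H2-Aa lay in 1 of 26, 7 of 38 and 3 of 51 C1q-high cells of E19 (esophagus, GE-SCJ, stomach). The top cells of these regions held 9, 61 and 22 UMIs. Ccr2, the receptor that brings monocytes into tissue, had 0 and 107 UMIs in the same Lyve1-positive and Lyve1-negative cells. The Lyve1-positive side was at least 32.6-fold lower when 3 counts stand for the 0. Ccr2 lay in 1, 7 and 9 C1q-high cells of E19, in the same order of regions. Each of these genes was thus held by a minority of the Lyve1-negative cells. Of 8 listed genes of monocytes and antigen presentation, 5 had enough UMIs at E19 and all 5 were lower by at least 1 on the log2 scale, where 1.91% of 2668 genes were, with a median of -5.48 against 0.08 over all genes tested. At E15, 2 had enough UMIs and both were lower, where 2.20% of 1226 genes were. Among the listed genes with the highest log2 ratios on the Lyve1-positive side were Clu (1.81) and Pf4 (1.80) at E15, Cd163 (3.33) and Fcna (3.22) at E19, and Pf4 (1.53) in the pup. Pf4 encodes a chemokine, Cd163 a scavenger receptor for hemoglobin, and Fcna a ficolin that can start the lectin pathway. Lyve1 positivity is itself a readout of these cells, so the contrast is a description.

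Other macrophage genes were followed in the same C1q-high cells. Of 23 listed, 20 had enough UMIs between E15 and the pup, 8 were higher and 2 lower by at least 1 on the log2 scale, where 10.4% and 7.67% of all genes tested were, and their median was 0.26 against -0.09 over all genes. Cd163 went from 13.2 CPM (11 UMIs) at E15 and 72.3 CPM at E19 to 1449 CPM (629 UMIs) in the pup, a log2 ratio of 6.66 (5.93 to 7.79). It stood at 1524, 1275 and 1581 CPM in the pup esophagus, GE-SCJ and stomach, within a narrow range across the regions. Lyz2, which encodes lysozyme, went from 380 to 1834 CPM and Apoe from 7023 to 21538 CPM. Aif1 was among those lower in the pup (653 to 295 CPM). Maf (1869 and 1892 CPM) and Cd68 (178 and 203 CPM) were level. Of the 10 genes of the CSF1 axis, 7 had enough UMIs, and 2 were higher by at least 1, Csf2rb among them, with none lower (median 0.48).

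From E15 to E19, MHC class II genes were at higher CPM in the same cells, mainly in the GE-SCJ. H2-Eb1 was at 7.18 and 58.4 CPM (log2 ratio 2.82, 1.85 to 4.51) and H2-Ab1 at 15.6 and 88.5 CPM (2.41, 1.69 to 3.45), while H2-Aa was at 22.7 and 86.7 CPM (1.87, 1.24 to 2.71). The GE-SCJ held 111 of the 144 H2-Aa UMIs of E19, 61 of them in 1 cell, and at E15 all 19 lay in the stomach. The top GE-SCJ cell for H2-Eb1 held 51 of its 97 UMIs of E19, and that for H2-Ab1 held 52 of its 147. By region H2-Aa was at 0, 0 and 62.2 CPM at E15 and at 39.5, 205 and 26.9 CPM at E19. Without the GE-SCJ the log2 ratio was -0.24 for H2-Aa, 0.83 for H2-Ab1 and 0.94 for H2-Eb1, so the higher level rested on that sample. Of 6 genes of the monocyte and antigen presentation list with enough UMIs, these 3 were higher by at least 1 and none lower, where 0.741% and 0.256% of all genes tested were. In the macrophage list 1 of 20 was higher and none lower, and in the complement list none of 8 passed that size.

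Complement genes other than C1q were also at higher CPM in pup C1q-high cells. Of 34 listed genes 30 were in the data, 8 had enough UMIs, and 6 were higher and none lower by at least 1 on the log2 scale, where 10.4% and 7.67% of all genes tested were, with a median of 1.72 against -0.09 over all genes. Fcna went from 17.9 to 380 CPM (4.32, 3.64 to 5.27), Cfp, which encodes properdin, from 77.8 to 417 CPM (2.41), and the anaphylatoxin receptor gene C5ar1 from 103 to 422 CPM (2.03). C3ar1, the receptor for C3a, went from 285 to 482 CPM (0.76) and Clu from 99.3 to 69.1 CPM (-0.49). In the pup, Fcna was highest in the esophagus, as was Lyve1, with a log2 ratio of esophagus over GE-SCJ of 2.23 and over stomach of 1.84. Unlike Lyve1, it was at near levels in the GE-SCJ (153 CPM) and stomach (201 CPM), with 24 UMIs in each. Lower in the esophagus were Aif1 (-1.18) and Cx3cr1 (-0.75) against the GE-SCJ, and Ms4a7 (-1.16) and Aif1 (-1.07) against the stomach.

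C3 in immune cells lay mostly outside the C1q-high cells. It was at 30.9, 15.8 and 95.3 CPM at E15, while E19 samples held 19.1, 39.1 and 43.8 CPM and pup samples 164, 67.6 and 27.9 CPM, in the order esophagus, GE-SCJ and stomach. These samples held 4 to 47 UMIs each and had no common order of regions. The 234 C1q-high cells held 34 C3 UMIs (11.4 CPM, 7.92 to 16.0). The 33 other immune cells with at least 20 UMIs of S100a8 and S100a9, calprotectin genes of neutrophils and their precursors, held 82 UMIs (377 CPM, 300.03 to 468), and the remaining 87 held 83 UMIs (145 CPM). C4b had 2 UMIs in all immune cells, both in the pup.

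Across labels, with stages pooled, C3 was highest by far in Stromal-2, a label of 139 cells. It was at 1128 CPM there (1072 to 1187), 52.9 CPM in immune cells, 11.0 CPM in Stromal (9.89 to 12.2), 7.87 CPM in columnar, 2.86 CPM in squamous epithelium and 1.34 CPM or less in neural, smooth muscle and endothelial cells. Stromal-2 carried the mesothelial markers Upk3b at 864 CPM in 96.4% of cells, Wt1 at 388 CPM and Msln at 331 CPM, against 0.924, 4.19 and 2.34 CPM in Stromal, and is called mesothelial-like here. Mesothelium is the thin outer lining of the gut tube. With stages pooled, the log2 ratio of mesothelial-like over Stromal cells was 6.68 for C3 (6.51 to 6.85), but pup cells were 52 of 139 mesothelial-like and 311 of 3442 Stromal cells. Within the pup the ratio was 6.13 for C3 (5.82 to 6.48), 3.11 for C2 and 3.31 for Cfb, which encode the protease parts of the C3 convertases. Within E19 it was 3.45 for C3 (2.69 to 4.09).

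C3 in mesothelial-like cells lay almost wholly in the pup. None of 26 cells at E15 held a UMI, where 3 counts would stand at 9.55 CPM. At E19 25 UMIs lay in 10 of 46 GE-SCJ cells and none in the 14 of the other regions. In the pup it was at 3813 CPM in the esophagus (158 UMIs in 6 of 6 cells), 5165 CPM in the GE-SCJ (720 UMIs in 19 of 19) and 3117 CPM in the stomach (612 UMIs in 26 of 27). All pup cells but 1 were thus positive. The only adult cell with the label held none, where 3 counts would stand at 780 CPM, so it gives no order against adult Stromal cells. All 6, 16 and 25 cells of the pup regions with at least 5 C3 UMIs also held Upk3b.

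In Stromal cells C3 was near 0 before birth and higher after birth in the esophagus and GE-SCJ. At E15 it was at 1.05, 0.531 and 2.62 CPM in the esophagus, GE-SCJ and stomach, with 16 UMIs in 1057 cells, and at E19 at 4.30, 5.59 and 1.21 CPM. In the pup it was at 33.4 CPM (20.7 to 51.1), 147 CPM (112 to 190) and 6.72 CPM (1.39 to 19.6). The GE-SCJ was highest, with 24 of its 82 cells positive. The stomach was lowest, from 3 UMIs, and its interval held its E15 value. In the adult esophagus it was at 953 CPM (809 to 1116), in 19 of 31 cells, of which the top cell held 23 of 154 UMIs. In the adult GE-SCJ 31 of 35 UMIs lay in 1 of 15 cells (299 CPM), so that value rests on a single cell. On the log2 scale pup over E15 was 5.24 (4.53 to 6.19), or 3.56 without the GE-SCJ, and adult over pup 3.59 (3.22 to 3.99). The adult side held no stomach cells, so stage and region cannot be told apart in the last ratio. With 98 UMIs over E15 and pup together, C3 was just under the 100 needed for the count of genes given with these labels.

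In epithelium C3 sat in a few cells. The pup columnar cells held 192 UMIs in 10 of 291 GE-SCJ cells, 85 of them in 1 cell, and 103 UMIs in 16 of 351 stomach cells, 70 of them in 1 cell. The 3 GE-SCJ cells among these with at least 5 C3 UMIs held no Epcam, while all 3 held Dcn (3 UMIs in all) and 2 held Col1a1 (4 UMIs). Of the 2 such stomach cells, 1 held Epcam (6 UMIs), 1 held Msln (8), 1 held Wt1 (2) and both held Col1a1 (9 in all). These counts are low for pup columnar cells, whose median total was 26581 UMIs. Whether these cells were epithelial was not tested, and they count as epithelium in the ratios below. Adult columnar cells held none. With stages pooled, the log2 ratio of Stromal over epithelium was 0.69 (0.47 to 0.90), and 1.63 without the 1% of cells with the most C3 UMIs on each side, so it depended on those cells. It also depended on the mix of stages, since adult cells were 46 of 3442 Stromal and 345 of 2270 epithelial cells. Within E15 it was 0.45 (-0.80 to 2.08), within E19 0.93 (0.35 to 1.56), within the pup 1.94 (1.56 to 2.28) and within the adult 8.55 (7.73 to 9.84). Adult C3 stood at 678 CPM in Stromal cells and 1.64 CPM in epithelium. Per cell the order was the other way before adulthood, and the pup held 0.264 C3 UMIs per Stromal and 0.400 per epithelial cell, and epithelial cells were deeper.

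C4b was sparse, with 92 UMIs in all cells. It was at 2.98 CPM in mesothelial-like, 2.94 CPM in neural, 1.85 CPM in Stromal and 0.829 CPM in smooth muscle cells, against 0.139 CPM in columnar and none in squamous cells. In Stromal cells its 4, 21, 20 and 15 UMIs of E15, E19, pup and adult came to 0.351, 1.09, 13.6 and 53.8 CPM. All 15 adult UMIs lay in 5 of 31 esophageal cells, 9 of them in 1 cell, and the pup stomach had none. The log2 ratio of pup over E15 was 5.03 (3.70 to 7.29) and that of Stromal over epithelium 3.86 (2.85 to 5.56), or 2.90 within E19 and 5.94 within the pup. C4b has a near-identical neighbour, C4a (chr17:34809092-34823464), so reads shared by the pair cannot be placed and the count of C4b is uncertain.

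**Figure D5:**
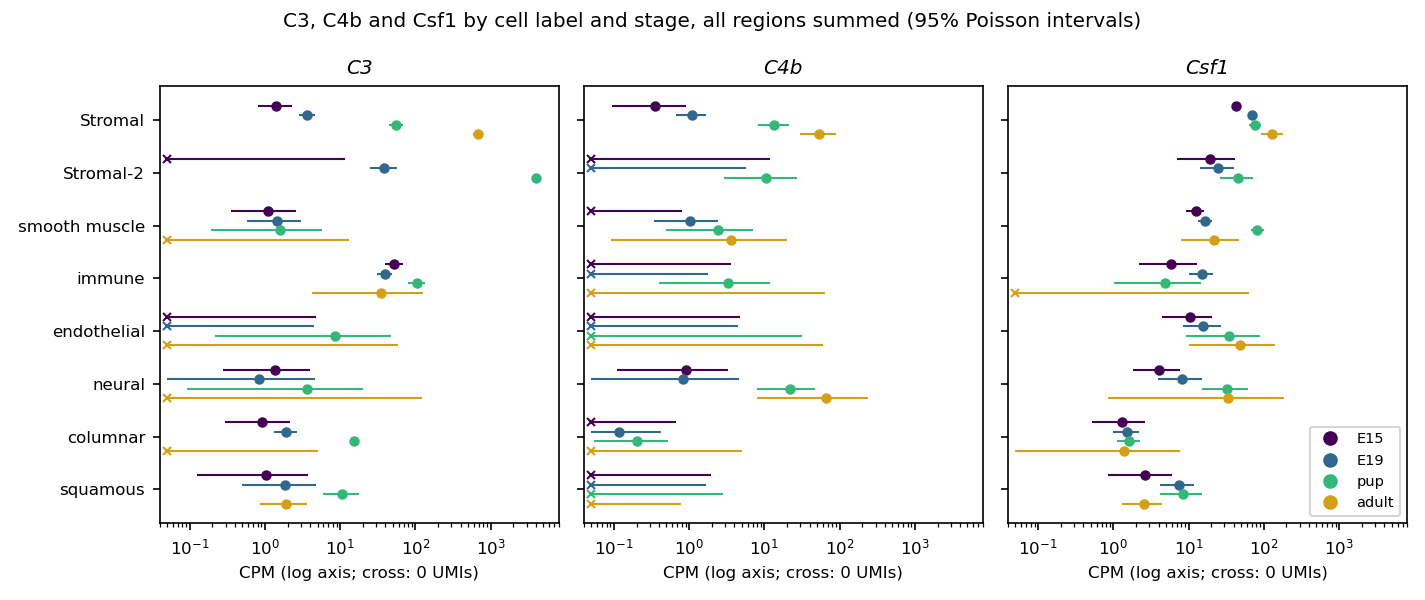
CPM (log axis) of C3, C4b and Csf1 by cell label and stage, regions summed, with 95% Poisson intervals; crosses mark 0 UMIs, and groups under 5 cells are left out. C3 in Stromal goes from 1.40 CPM at E15 to 678 CPM in the adult, C3 in Stromal-2 reaches 3950.5 CPM in the pup, and Csf1 in Stromal stays between 42.3 and 129 CPM.

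The genes of the C1 proteases and of the C1 inhibitor were also at higher CPM in Stromal cells after birth. C1s1 and C1ra, which encode the proteases bound to C1q, were at 13.1 and 6.58 CPM at E15, then 93.1 and 29.1, 200.3 and 100.1, and 384 and 122 CPM over the 3 later stages. Serping1, the C1 inhibitor, was at 124, 259, 759 and 1108 CPM. The adult values came without stomach cells, so stage and region cannot be told apart in the last step. C1s1, C1ra and Serping1 were each at a higher CPM at every later stage, with overlapping intervals of pup and adult for C1ra. Other inhibitor genes were not all in this order, since Clu was at 62.6, 59.6, 112 and 39.5 CPM, and Cd59a at 7.28, 9.79, 21.1 and 10.8 CPM, the last from 3 UMIs. From E15 to the pup 9 of the 30 complement genes had enough UMIs, 6 were higher and none lower by at least 1, with a median log2 ratio of 1.56 against -0.13 over all genes. In this comparison 8.37% of 9969 genes were higher and 11.8% lower by that much, and the only member tested, Csf1, was neither. Median depth was 10087 UMIs per Stromal cell at E15 and 4258 in the pup, and its part in these ratios was not tested.

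Between Stromal cells and epithelium, with stages pooled, 15 complement genes had enough UMIs, 7 higher in Stromal and 4 higher in epithelium by at least 1, where 24.8% and 16.7% of 13909 genes were. Colec12 (139 against 3.34 CPM) and Serping1 (241 against 6.27 CPM) led on the stromal side. Clu, a secreted inhibitor of the terminal pathway, was at 62.8 CPM in Stromal cells against 1097 CPM in epithelium, and Cfi, the protease that inactivates C3b, at 145 CPM in columnar cells. The receptor gene C3ar1 was at 206 CPM in immune cells and 0.401 CPM in Stromal cells. Of the members, Csf1 was 1 of 8 tested that was higher in Stromal by at least 1 and none was lower.

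Over 55 groups of label, region and stage with at least 20 cells, the genes whose log2(CPM + 10) was most like that of C1qa among 14758 genes were Ms4a6b (Pearson's r 0.996), Lrrc25, Cd53, Ms4a6c, C3ar1, Spi1, Was, C1qc (0.994), Cd33 and C1qb (0.994). These groups share a library, and the few immune groups against all others set such values, so they describe restriction to immune cells. Among the most alike for C3 were Cmah (0.800), Rnase4 (0.716), Ctso (0.715) and Ncoa4 (0.709), a looser likeness.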

How the data were processed

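The raw UMI counts per gene and cell were made by the authors with Cell Ranger 6.1.1 on the 10x mouse reference for mm10 (versions per the labels) and deposited without normalization. Cells were assigned by the authors to region and stage by tag, filtered on genes, UMIs and mitochondrial share, and labelled by clustering. The authors also deposited each cell's percent of mitochondrial UMIs, at most 19.7%. No doublet caller was run here. Counting of intronic or antisense reads is not given in the sources used here. Cells held 519 to 79817 UMIs (median 10424.5).

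CPM, shares, intervals and log2 ratios were computed with Python 3.11.15, numpy 2.4.6, scipy 1.17.1 and pandas 2.3.3, and plots with matplotlib 3.10.9. The interval code was tested on simulated data. Genes with at least 100 UMIs over both sides of a comparison entered counts of genes, with 1 on the log2 scale as the limit. The members and lists were chosen with earlier results of these data known. Genes named from the lists are the 3 with the highest CPM in a group or, for a ratio, the 2 largest each way with at least 50 UMIs over both sides. Other list genes named as examples, the limit of 5 C1q UMIs, the split by Lyve1 and the limit of 20 S100a8 and S100a9 UMIs were chosen after values were seen. Alternatives included thinning cells to 2000 UMIs and leaving out cells by their 15 nearest neighbours in 30 principal components of 2000 variable genes (scikit-learn 1.9.0). Some listed genes are counted in the summaries but not reported here by name.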

Additional observations from a re-analysis of the deposited data

Results flagged for a closer look

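C3 in immune cells differed in direction between regions across birth. The log2 ratio of pup over E15 was 2.29 in the esophagus (1.36 to 3.62) and 1.95 in the GE-SCJ (0.49 to 3.96), but -1.49 in the stomach (-3.72 to -0.30), with 1 pooled sample on each side, and the difference was not tested. Few molecules stand behind these values, with 9 and 47 UMIs in the esophagus, 5 and 12 in the GE-SCJ and 39 and 4 in the stomach at E15 and in the pup. Of the 39 UMIs of the E15 stomach, 17 lay in 1 cell with at least 20 S100a8 and S100a9 UMIs, and of the 47 of the pup esophagus, 32 lay in 7 such cells. The part of cell mixture in the difference was not tested.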

How the results depend on the processing

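Ratios of E15 over pup in immune cells are log2 values here, so a gene higher in the pup is negative. As the mean of each cell's CPM, C1qa was at -1.24, C1qb at -0.77, C1qc at -0.97 and Mrc1 at -0.95, and C3 in Stromal over epithelium at 1.05. With library sizes without mitochondrial, ribosomal protein and hemoglobin genes, C1qa was at -0.95, C1qb at -0.46 and C1qc at -0.70. Without cells whose neighbours mostly came from the other side of birth (23 of the 86 pup immune cells), C1qa was at -1.26, C1qb at -0.75, C1qc at -0.99, Csf1r at -0.31, Mrc1 at -0.997 and Lyve1 at -2.44, and C3 in Stromal over epithelium at 1.81. In cells with Ptprc, Mrc1 was at -0.90 and Lyve1 at -2.46. Leaving out the 1% of cells richest in the gene's UMIs, C3 was at 1.63 in Stromal over epithelium and at 6.85 in Stromal pup over E15. The 16 C3 UMIs of the 1057 E15 Stromal cells lay in 4, 2 and 8 cells (esophagus, GE-SCJ, stomach). This change took most of them, so 6.85 rests on an E15 side with very few UMIs.

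Further alternatives were added after seeing the data. As UMIs per cell, C1qa was at -0.26, C1qc at -0.0013, Csf1r at 0.68, Lyve1 at -1.29 and Adgre1 at 0.73, while C1qb turned to 0.24 and Mrc1 to 0.11. In C1q-high cells, Mrc1 pup over E15 turned from 0.90 to -0.24 by the same change, and Lyve1 went from 2.31 to 1.17, or 1.29 without the esophagus. C3 in Stromal, pup over E15, was at 3.56 without the GE-SCJ. Csf1 in Stromal, pup over E15, turned from 0.86 to -0.33 as UMIs per cell. Within E15, E19, pup and adult, C3 in Stromal over epithelium was at 0.45, 0.93, 1.94 and 8.55, and within the pup C4b was at 5.94. C4b at E15 and in the adult, and C3 in Stromal-2 at E15 and in the adult, gave no ratio because a side held no UMI. H2-Aa in C1q-high cells, E19 over E15, turned from 1.87 to -0.24 without the GE-SCJ. Moving the C1q limit to 2 or 10 UMIs kept the Lyve1 and Mrc1 ratios within their intervals. In cells thinned to 2000 UMIs, Adgre1 was carried by 35.3% of immune cells against 65.5%, Lyve1 by 28.1% against 34.5% and C1qa by 65.9% against 66.4%. Over these ratios and the alternatives of the first paragraph, 49 values stayed within the counting interval of the reported value and 19 moved beyond it. No paired analysis was possible because each tag is a single pool with no replicate number.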

Other observations

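Lyve1 had a further source outside the immune cells. Endothelial cells carried 241 CPM (219 to 265), all of it in 16 of 157 cells. Those 16 cells held Prox1, the lineage factor of lymphatic endothelium, at 854 CPM, Reln at 1190 CPM and the chemokine gene Ccl21a at 6079 CPM, against 9.70, 0 and 1.21 CPM in the other 141, and no Ptprc and no C1qa.

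The 10 Csf1 UMIs of a single E19 stomach immune cell stood among 40 in all immune cells. This cell was 1 of the 5 immune cells with at least 3 UMIs of the mast cell genes Cma1 and Cpa3, and the only 1 of them with Csf1. The adult GE-SCJ immune cell, which carried all adult Lyve1, had 33968 UMIs. The 3 adult C1q-high cells held 449 UMIs of smooth muscle markers. Nearly all lay in 1 cell, since only 1 of the 3 held at least 3 of them. The 87 immune cells with few C1q, S100a8 and S100a9 UMIs carried Ccr2 at 450.1 CPM and H2-Aa at 541 CPM, against 63.2 and 64.2 CPM in C1q-high cells. Pup immune cells held 335 Chil3 and 67 Fcnb UMIs, genes of neutrophil precursors and monocytes, where E15 cells held 0 of each.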
